A study of Rattus norvegicus with 3 samples.

Results

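Levels of 9 interferon-stimulated genes and their regulators were described in the injured rat carotid artery. The genes were Isg15, Gbp2, Mx1, Mx2, Oas1a, Ifit3, Irf7, Irf1 and Stat2. They were chosen by name, with earlier results of these data known. Their probes were found through the RefSeq accession that the scanner files give for each probe. All 9 had a probe, out of 15296 genes with a probe on any array. RNA came from whole common carotid arteries of Wistar males, taken 7 days after balloon injury, 21 days after balloon injury, or uninjured, with 1 one-colour array for each. The sources used here do not give the age of the rats, or say whether the uninjured artery came from a rat injured elsewhere. The series' design text speaks of independent experiments with different rats, and further arrays were not analysed here. With 1 array per group there were no replicates, so no test could be made and every difference stands between 2 arrays. In whole tissue, fewer cells of a type and less RNA per cell cannot be told apart.

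Interferons signal through surface receptors and JAK kinases to STAT transcription factors. Type I interferons activate a complex that holds Stat2 and Irf9 and binds the interferon-stimulated response element (ISRE) of target promoters, whereas interferon gamma acts through the gamma-activated site (GAS). The targets include antiviral proteins and the factors Irf1 and Irf7, which carry the response on. In arteries, these genes are known to be expressed by wall cells and by infiltrating leukocytes.

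RefSeq's promoter table (GRCr8, windows of 300 bases around the annotated start) held 7 of the 9 genes, and Isg15 and Mx2 were not among them. The windows were searched on both strands for the ISRE pattern GAAANNGAAA and the GAS pattern TTCNNNGAA. The GAS pattern is its own reverse complement. The ISRE pattern was found in 4 of the 7, Oas1a, Gbp2, Ifit3 and Irf7, against 3.92% of all 33469 promoters in the table. The GAS pattern was found in 2 of the 7, Oas1a and Irf1, against 8.87% of all promoters. Mx1 and Stat2 held neither pattern in this window. A match describes letters and not a bound site. The 4 promoters printed here belong to measured genes that were lower (Oas1a, Irf7) or higher (Gbp2, Irf1) in an injured artery. They lie at chr12:41330216-41330515 (Oas1a, plus strand), chr2:234005477-234005776 (Gbp2, plus strand), chr1:205799974-205800273 (Irf7, minus strand) and chr10:38417685-38417984 (Irf1, plus strand). They are written 5′ to 3′ in the gene's direction, with pattern matches in capitals.
Oas1a: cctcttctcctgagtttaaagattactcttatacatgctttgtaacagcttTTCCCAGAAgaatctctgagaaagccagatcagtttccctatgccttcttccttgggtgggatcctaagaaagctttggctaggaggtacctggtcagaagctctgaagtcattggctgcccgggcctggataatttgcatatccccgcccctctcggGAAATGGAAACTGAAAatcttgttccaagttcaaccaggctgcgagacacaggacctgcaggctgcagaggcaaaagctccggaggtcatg
Gbp2: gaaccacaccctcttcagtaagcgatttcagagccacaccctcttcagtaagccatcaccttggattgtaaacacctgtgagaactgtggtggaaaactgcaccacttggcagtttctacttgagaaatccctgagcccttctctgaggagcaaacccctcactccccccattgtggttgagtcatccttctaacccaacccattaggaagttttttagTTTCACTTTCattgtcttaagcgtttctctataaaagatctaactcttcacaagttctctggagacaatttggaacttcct
Irf7: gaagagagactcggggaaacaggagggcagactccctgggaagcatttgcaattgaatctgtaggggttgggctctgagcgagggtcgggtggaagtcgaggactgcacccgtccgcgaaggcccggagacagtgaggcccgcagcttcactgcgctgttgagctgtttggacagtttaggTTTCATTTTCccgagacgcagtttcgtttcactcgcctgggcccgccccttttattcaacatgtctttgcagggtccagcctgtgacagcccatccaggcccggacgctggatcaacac
Irf1: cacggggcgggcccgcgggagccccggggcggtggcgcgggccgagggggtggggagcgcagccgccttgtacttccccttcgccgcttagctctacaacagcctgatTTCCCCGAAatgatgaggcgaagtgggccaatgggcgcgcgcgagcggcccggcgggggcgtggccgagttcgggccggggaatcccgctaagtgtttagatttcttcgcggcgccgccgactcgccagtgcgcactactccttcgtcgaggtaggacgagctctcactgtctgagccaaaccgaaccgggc

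In Oas1a, 2 matches to the ISRE pattern overlapped and spanned bases -41 to -26 from the start site, and the GAS match lay at -199 to -191. The single ISRE match lay at -31 to -22 in Gbp2, at -44 to -35 in Ifit3 and at -69 to -60 in Irf7. The GAS match of Irf1 lay at -142 to -134. Of the measured genes with an ISRE match, Oas1a and Irf7 were lower in an injured artery and Gbp2 was higher. The wider pathway lists held the ISRE pattern in 20 of 31 promoters of other antiviral genes, 14 of 22 of interferon gamma-induced genes and 0 of 9 of receptor and JAK-STAT genes.

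**Figure D1:**
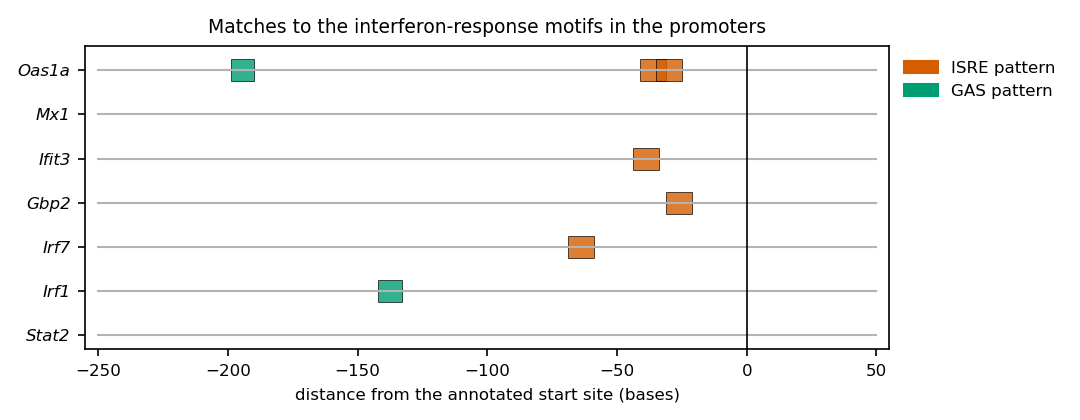
Positions of pattern matches in the promoters of the 7 genes with a RefSeq window, in bases from the annotated start site (vertical line); orange bars are ISRE matches and green bars GAS matches. The ISRE matches lie between -69 and -22 in Irf7, Ifit3, Oas1a and Gbp2, and Mx1 and Stat2 show no bar.

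The day 7 array had another design than the other arrays, which share theirs, and was read with a later software version. Array batch and time after injury therefore cannot be told apart wherever day 7 is compared. The 9 genes had 15 probes, 9 on the older design and 10 on the day 7 design. Only Isg15, Gbp2, Irf7 and Irf1 had a probe on all 3 arrays. The other 5 genes were read by different probes on the designs, and levels from different probes are not comparable, so their day 7 level has no reference. In the order uninjured, day 7 and day 21, 59.8%, 76.6% and 66.7% of probes were well above background, and 0 spots were saturated. The 75th percentile of intensity over the 10583 shared probes was 127, 230 and 384 intensity units on the uninjured, day 7 and day 21 arrays. Ratios are log2 ratios of signals scaled to the array's 75th percentile, and ± marks 1 technical SD where it is given. All probes of the 9 genes had 1 spot per array. Their SD was therefore taken from replicate spots of other probes at similar signal. That spread holds no biological error. The markers of smooth muscle, the labelled tissue's main cell type, were well above background on every array.

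Isg15, a ubiquitin-like protein that is attached to other proteins during the interferon response, was lower at both times after injury. Its single shared probe gave 398 intensity units in the uninjured artery, 114 at day 7 and 226 at day 21, so both injured arteries were below the uninjured one before any scaling. At day 7 Isg15 was 6.31-fold lower than in the uninjured artery (log2 ratio -2.66 ± 0.21). At day 21 it was 4.82-fold lower (-2.27 ± 0.35). Only 1.27% of the 5263 genes measured on both arrays had a lower ratio than Isg15 at day 7, and likewise 1.27% of 9429 genes at day 21. The 2 injured arteries differed by 0.24 ± 0.36 for day 21 over day 7, less than the technical spread. This ratio passed 2-fold upwards under 2 of 9 alternatives, at 1.61 on each array's own design and 1.27 in the authors' deposited table.

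Irf7, the factor that amplifies type I interferon production, had scaled levels in the same order, highest in the uninjured artery and lowest at day 7. It gave 251 intensity units in the uninjured artery, 137 at day 7 and 307 at day 21. At day 7 the gene was 3.32-fold lower than in the uninjured artery (-1.73 ± 0.20), with 5.83% of genes further down. At day 21 the unscaled intensity was above that of the uninjured artery, and the scaled ratio was 2.23-fold lower (-1.16 ± 0.34). Day 21 over day 7 was 0.43 ± 0.33, slightly more than the technical spread and under 2-fold, whereas it was 1.80 on each array's own design and 1.40 in the authors' deposited table, both past 2-fold.

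Gbp2, a guanylate-binding GTPase induced by interferon gamma, was higher at day 7. Its probe gave 338 intensity units in the uninjured artery, 2325 at day 7 and 1165 at day 21. Day 7 was 3.79-fold higher than uninjured (1.92 ± 0.18), a ratio above that of 95.3% of genes. Day 21 over uninjured was 0.34 ± 0.25, below the 2-fold threshold, and day 21 was 3.32-fold lower than day 7 (-1.73 ± 0.23). With scaling on each array's own design, the day 7 ratio was 0.70 and the ratio of day 21 over day 7 was -0.36, both under 2-fold.

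Irf1, the interferon gamma-induced factor that activates many of these promoters, did not rise well above background on the uninjured array. The shared probe gave 7.90 intensity units there, 53.2 at day 7 and 71.8 at day 21. A ratio to the uninjured artery is therefore a bound, set by the lowest signal that is well above background on that array. The bound for Irf1 was at least 3.50-fold higher at day 7, and for day 21 it was at least 3.16-fold higher. Day 21 over day 7 was -0.30 ± 0.51, less than the technical spread. A second Irf1 probe, present on the day 7 array alone, gave 429 intensity units there. With normexp background correction, which compresses dim signals, Irf1 was at 0.14 on the log2 scale at both times, under the threshold, and on each array's own design it was at 0.59 at day 7.

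**Figure D2:**
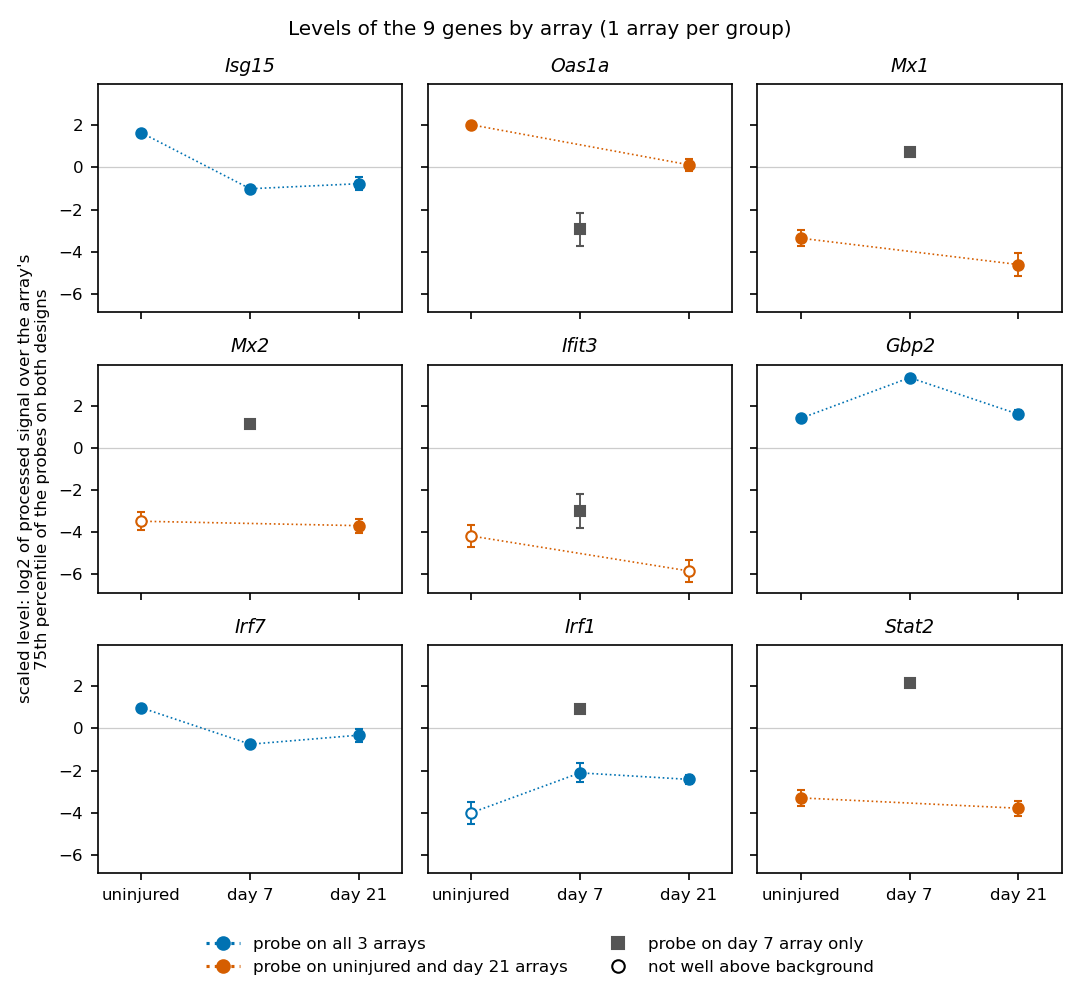
Level of each gene on the 3 arrays, as log2 of processed signal over the array's 75th percentile of the probes on both designs; error bars are 1 technical SD, dotted lines join readings of one probe, and open symbols are not well above background. Isg15 and Irf7 are highest on the uninjured array, Gbp2 is highest at day 7, and the grey squares of 5 genes at day 7 (and of a second Irf1 probe) come from probes with no counterpart on the other arrays.

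Oas1a, an oligoadenylate synthetase that senses double-stranded RNA, was lower at day 21. Its probe on the older design gave 420 intensity units at day 21, against 519 in the uninjured artery. The scaled ratio was 3.37-fold lower (-1.75 ± 0.31), and 2.96% of genes lay further down. The other probe, on the day 7 array alone, gave 30.1 intensity units.

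Mx1 and Mx2 encode dynamin-like GTPases that block virus replication. Mx1 gave 15.7 intensity units at day 21, against 12.3 in the uninjured artery, and its scaled ratio was 2.15-fold lower (-1.10 ± 0.66). Both Mx1 signals lay near the lowest signal well above background, which was 9.22 intensity units on the day 21 array and 8.31 on the uninjured array. Mx2 gave 29.7 intensity units at day 21, against 11.4 in the uninjured artery, where it was not well above background, and the bound gave no fold in either direction. The probes on the day 7 array alone gave 380 intensity units for Mx1 and 507 for Mx2.

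Stat2, a subunit of the complex that type I interferons activate, gave 27.7 intensity units at day 21, against 12.9 in the uninjured artery. The scaled ratio was -0.34 ± 0.52, less than the technical spread, and it ranged from -0.49 to 0.25 over the alternatives. The probe on the day 7 array alone gave 1037 intensity units. Ifit3, a tetratricopeptide protein that acts with Ifit1 on viral RNA, gave 6.72 intensity units at day 21, against 7.02 in the uninjured artery. It was not well above background on either array, and the probe on the day 7 array alone gave 28.7 intensity units. Close relatives such as Mx1 and Mx2, or Oas1a and the other Oas1 genes, may hybridise to each other's probes, which was not tested.

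At day 7, Gbp2 and Irf1 passed 2-fold upwards and Isg15 and Irf7 passed it downwards, 2 and 2 of the 4 comparable genes. Among the 6732 genes counted in this comparison, higher ones past 2-fold made up 20% and lower ones 17.7%. A fold of 1.5 or of 3 left the count of higher genes at 2, against 33.2% and 8.93% of all genes. The median of the 4 log2 ratios, bounds included, was 0.04, against 0.11 for all genes. That middle value lies between the 2 higher and the 2 lower genes and describes neither pair.

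At day 21, 8 of the 9 genes could be counted, and Ifit3 could not. Isg15, Oas1a, Irf7 and Mx1 were at least 2-fold lower, 4 of 8 against 14.6% of the 11010 genes counted. Irf1 alone was at least 2-fold higher, 1 of 8 against 9.91% of all genes. The count was also 1 at a fold of 1.5 (16.6% of all genes) and of 3 (5.55%). The median over the 8 genes was -0.72, against -0.11 for all genes, and over the 6 measured on both arrays it was -1.13, against -0.20. Of the 4 lower genes, Isg15 and Oas1a were also lower in unscaled intensity, at -0.82 and -0.31 on the log2 scale. For Oas1a this difference was about the size of the technical SD (0.31). Irf7 and Mx1 were lower only after scaling to the brighter day 21 array. Isg15 and Oas1a stayed at least 2-fold lower under every alternative that gave a value, 9 of 9 and 8 of 8, Irf7 under 7 of 9 and Mx1 under 3 of 8. Irf7 was at -0.68 with median scaling and -0.55 with normexp, and the 5 values of Mx1 under 2-fold ran from -0.77 to -0.38.

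Between the injured arteries, Gbp2 was at least 2-fold lower at day 21 than at day 7, 1 of 4 genes against 26.3% of the 6890 genes counted. None of the 4 was at least 2-fold higher, against 11% of all genes. The count was also 0 at a fold of 1.5 (20.5% of all genes) and at a fold of 3 (4.7%). The median of the 4 ratios was -0.03, against -0.22 for all genes.

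**Figure D3:**
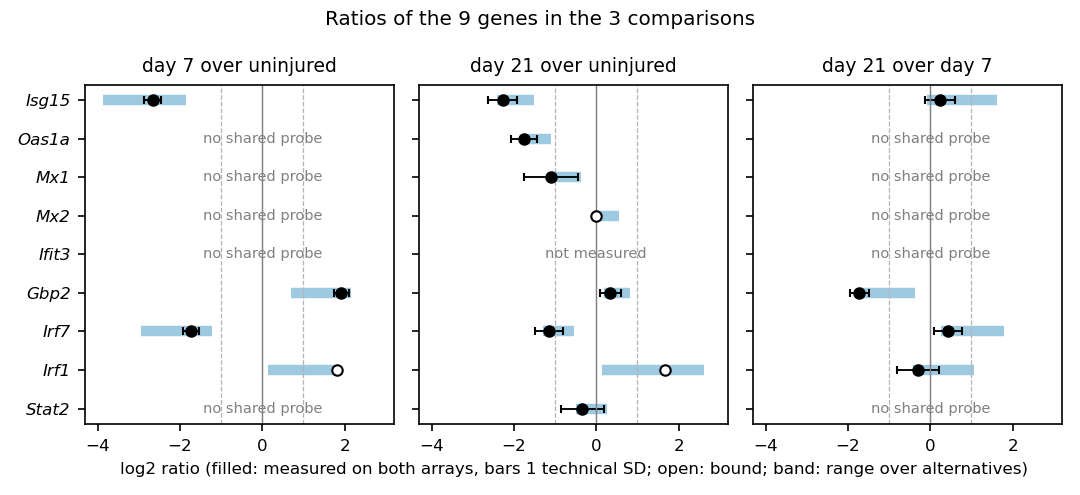
Log2 ratios of the 9 genes in the 3 comparisons; filled points were measured on both arrays with bars of 1 technical SD, open points are bounds, blue bands span the alternatives of scaling, background and probe choice, and dashed lines mark 2-fold. Isg15 lies left of the 2-fold line in both comparisons with the uninjured artery across its whole band, and the point of Gbp2 lies right of it at day 7, with a band that reaches down to 0.70.

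The balance of higher and lower genes in these arrays moved with the scaling. At day 7, higher genes made up 53.1% of those past 2-fold in either direction, against 31% with median scaling, 40.9% with quantile normalization, 40.3% with normexp and 6.7% with scaling on each array's own design. At day 21 this share was 40.5%, against 73.7% with median scaling, 58.8% with quantile normalization, 69.2% with cyclic loess and 73.7% with normexp. For day 21 over day 7 it was 29.5%, against 54.2%, 56.7% and 51.6% with median, quantile and loess scaling and 89.3% on each array's own design. The median log2 ratio of all measured genes was -1.23 at day 7 on each array's own design, against -0.01 in the main scaling, and 0.28 at day 21 with median scaling, against -0.20. On each array's own design the pathway lists counted 0 or 1 higher gene each at day 7.

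The rest of the pathway was followed through 7 lists of genes. Among interferon receptors, JAK kinases and STAT factors, 5 of 9 counted genes passed 2-fold upwards at day 21 and 0 downwards, with a median log2 ratio of 1.10, while 9.91% and 14.6% of all genes did so. Ifngr1, the ligand-binding chain of the interferon gamma receptor, gave 279 intensity units at day 21, against 19.2 in the uninjured artery, and was 5.33-fold higher (2.41 ± 0.42). Its partner chain gene Ifngr2 was higher at both times, 4.52-fold at day 7 (2.18 ± 0.19) and 2.64-fold at day 21 (1.40 ± 0.24). Il10rb, a chain of the interferon lambda receptor, was 3.89-fold higher at day 21, and the kinase gene Jak2 2.64-fold. The fifth was Stat3, picked for mention after its values were seen, whose probes gave 1.10 and -0.16. The kinase gene Jak1, picked in the same way, was counted at 0.50 on its brightest probe. Its other probe gave -1.21, past 2-fold downwards, with both signals well above background. The count of 0 lower genes therefore rests on the choice of probe. Normexp correction left 1 of these 9 genes past 2-fold, and the scalings left 5. At day 7, 1 of 4 counted genes of this list was higher and 2 lower, against 20% and 17.7% of all genes. Stat3 was 2.51-fold lower at day 7, on the probe that gave -0.16 at day 21. The Stat3 probe that gave 1.10 was not among the shared probes, so the lower and higher calls rest on different probes. With normexp, 0 of the 4 genes were lower at day 7.

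Other IRF factors and nucleic acid sensors were mixed. Irf5, a factor of Toll-like receptor signalling in myeloid cells, was 5.62-fold higher at day 7 (2.49 ± 0.23) and 10.5-fold higher at day 21 (3.39 ± 0.30). Its probe gave 37.6 intensity units in the uninjured artery, 384 at day 7 and 1081 at day 21. Irf2bp1, a corepressor that binds Irf2, was 3.83-fold lower at day 21. Its log2 ratio was -1.94, and other settings gave -1.46 to -0.84. The other IRF list counted 1 of 2 genes higher at day 7, and 1 higher and 1 lower of 6 at day 21. Tlr7, the endosomal receptor for single-stranded RNA, stayed near background on the uninjured array, and its bound was at least 3.81-fold higher for day 7 and at least 6.02-fold for day 21. Tlr3, which senses double-stranded RNA, was 2.17-fold higher at day 21, and these were the 2 of 9 sensor genes that were higher, with 0 lower. At day 7, 1 of 4 sensor genes was higher and 1 lower, the kinase gene Tbk1, at least 2.78-fold. The shares of all genes past 2-fold were 20% higher and 17.7% lower at day 7, and 9.91% and 14.6% at day 21. The sensor count moved with the setting. At day 21 it was 5 higher of 9 with median scaling, 4 with quantile or loess scaling and 1 with normexp, and at day 7 normexp left 0 higher and 0 lower.

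Of the other antiviral interferon-stimulated genes, 4 of 22 counted were higher and 4 lower at day 7, and 4 of 28 were higher and 2 lower at day 21. Over all genes, 20% were higher and 17.7% lower at day 7, and 9.91% and 14.6% at day 21, so the list's day 7 shares were near the background. Their medians were 0.10 and 0.18. Ifitm1, a membrane protein that restricts virus entry, was the highest of them at both times. Its probe gave 100 intensity units in the uninjured artery, 4219 at day 7 and 7518 at day 21, and the ratios were 23.2-fold (4.54 ± 0.21) and 27.5-fold (4.78 ± 0.22). Trim25, the ubiquitin ligase that acts on the RNA sensor RIG-I, was 4.40-fold higher at day 7 and 7.13-fold higher at day 21. Plscr1, a phospholipid scramblase, was 2.95-fold higher at day 21. In the other direction, Eif2ak2, which encodes the RNA-activated kinase PKR, was 3.25-fold lower at day 7 (-1.70 ± 0.19). Oasl was at least 3.57-fold lower at day 7, and the exonuclease gene Isg20 was 3.40-fold lower at day 21 (-1.76 ± 0.31). Higher genes numbered 3 to 9 of the 28 at day 21 over the other scalings and normexp, and lower genes 0 to 1. At day 7 the lower genes numbered 7 of 22 with median scaling, 6 with quantile or loess scaling, 12 on each array's own design and 1 with normexp.

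Interferon gamma-induced genes counted 1 of 11 higher and 0 lower at day 7, and 6 of 15 higher and 1 lower at day 21, where their median was 0.49. Over all genes, the higher made up 20% and the lower 17.7% at day 7, and 9.91% and 14.6% at day 21. The day 21 median was 0.97, 0.98, 1.14 and 0.92 with median, quantile and loess scaling and normexp, which counted 7, 7, 9 and 7 of the 15 higher. The immunoproteasome subunit gene Psmb8 was 3.87-fold higher at day 21 (1.95 ± 0.35), at 417 intensity units against 39.5 in the uninjured artery. Ifi47, an immunity-related GTPase, was 2.66-fold higher and the peptide-loading chaperone gene Tapbp 2.55-fold higher. Ciita, the activator of MHC class II genes, was 2.59-fold lower, at 11.9 intensity units at day 21 against 11.2 in the uninjured artery, both near the background limit, and the ratio was under 2-fold in all other scalings. At day 7 Psmb9, another immunoproteasome subunit gene, was 2.05-fold higher, and its log2 ratio ran from -0.18 to 1.27 over other settings. The day 7 count was 0 higher and 1 lower with median scaling, and 0 higher and 3 lower on each array's own design.

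Inhibitors of interferon signalling counted 1 higher and 1 lower of 8 at day 7, where median, quantile and loess scaling counted 4 or 5 lower, and 2 higher and 0 lower of 13 at day 21. On each array's own design 7 of the 8 were lower at day 7, and with normexp 0 of the 8 were lower. The shares over all genes were 20% higher and 17.7% lower at day 7 and 9.91% and 14.6% at day 21. Ptpn6, a tyrosine phosphatase of blood cells, was 6.71-fold higher at day 7 (2.75 ± 0.19) and 18.4-fold higher at day 21 (4.20 ± 0.23). Ptpn1, a phosphatase that acts on JAK kinases, was at least 3.53-fold higher at day 21, and Pias2 was 3.46-fold lower at day 7. Of the interferon genes themselves, 3 could be counted at day 7 and 2 at day 21. Ifnb1 was at least 2.22-fold higher at day 7, at 33.9 intensity units against 8.40 in the uninjured artery, where it was not well above background, and no other scaling left it past 2-fold. Ifna4 was 2.11-fold lower at day 21, and with median or loess scaling and with normexp it was not past 2-fold.

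Between the injured arteries, all 3 counted interferon genes were at least 2-fold lower at day 21 than at day 7, with Ifnb1 at -2.39 ± 0.91. Quantile, loess and normexp values left 1 of the 3. For day 21 over day 7, Stat3 was 2.03-fold higher, on the same probe as its day 7 ratio. Among other antiviral genes 1 of 23 was higher (Ifit2, 2.12-fold) and 4 lower, with Dtx3l at least 7.68-fold, Trim21 at least 4.66-fold and Ifit1 at least 2.57-fold lower and Lgals3bp 2.84-fold lower. The Dtx3l bound rests on a shared probe that was not well above background at day 21. Another Dtx3l probe, not among the shared ones, was well above background at day 21. It gave 0.67 over the uninjured artery, where it was not well above background. With other settings the list of other antiviral genes counted 7 higher (median scaling), 5 (quantile or loess), 0 (normexp) and 16 with 1 lower (each array's own design). The gamma-induced list counted 2 of 11 higher, Psmb10 and Psmb8, and 2 lower, Ido1 and Cxcl11. It counted 4 higher with median scaling, 0 lower with quantile normalization, and 8 higher and 0 lower on each array's own design. Over all genes, 11% were higher and 26.3% lower between these arteries.

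**Figure D4:**
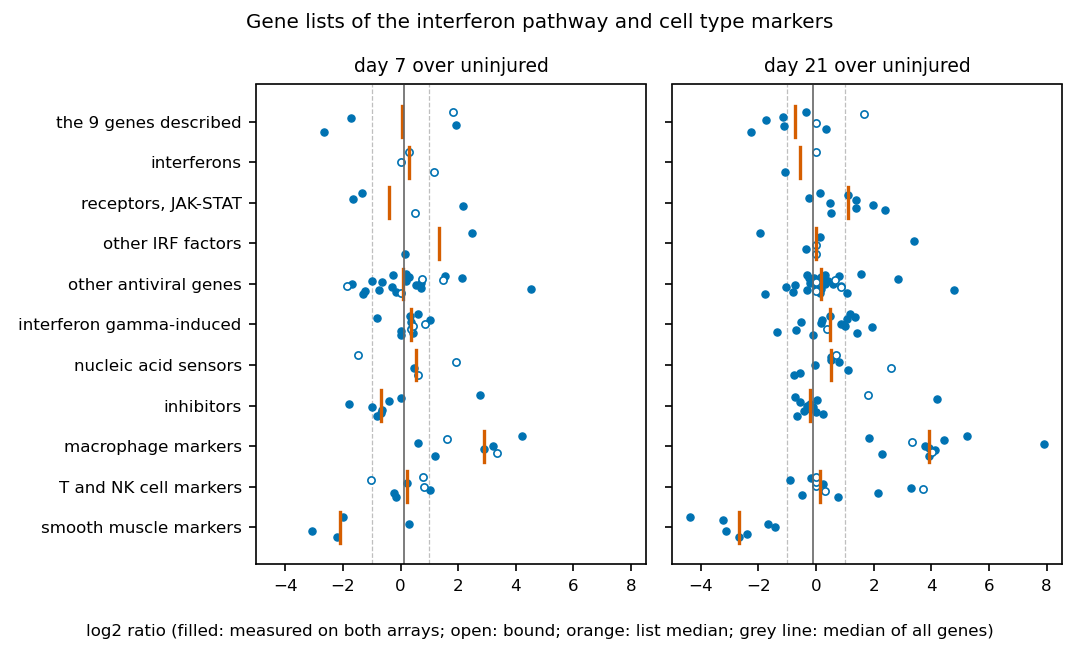
Log2 ratios of each counted gene of the pathway lists and of 3 marker lists, at day 7 (left) and day 21 (right) over uninjured; filled points were measured on both arrays, open points are bounds, orange lines are list medians and the grey line is the median of all genes. At day 21 the receptor and JAK-STAT genes lie at a median of 1.10 and the 9 genes described at -0.72, while macrophage markers lie at 3.92 and smooth muscle markers at -2.69.

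Markers of several cell types also differed between the arteries. For comparison, 20% of all genes were higher and 17.7% lower past 2-fold at day 7, and 9.91% and 14.6% at day 21. Macrophage markers passed 2-fold upwards for 6 of 7 counted genes at day 7 and 11 of 11 at day 21. Their summed level, in multiples of the array's 75th percentile, was 83.8 at day 7 against 5.85 in the uninjured artery, over 7 genes. At day 21 it was 1440 against 36.2, over 12 genes. Sums at day 7 use shared probes and those at day 21 all probes of the older design, each with its own scaling. Sums at the 2 times are therefore not comparable. On shared probes, macrophage markers summed to 150 at day 21 and 83.8 at day 7. Smooth muscle markers summed to 28.2 and 37.2 there, and T and NK cell markers to 2.96 and 1.52. Smooth muscle markers were lower for 3 of 4 genes at day 7 and 7 of 7 at day 21, with sums of 37.2 against 172 and of 131 against 827. Markers of T and NK cells, a source of interferon gamma, were higher for 1 of 7 counted genes at day 7, with 1 lower. At day 21, 3 of 12 were higher and 0 lower. The other scalings and normexp counted 0 of the 7 higher at day 7. The sums of these markers were 1.52 against 1.42 at day 7 and 14.6 against 4.69 at day 21. Of the markers of plasmacytoid dendritic cells, known for making interferon alpha, 0 of 1 with a probe was well above background at day 7 and 1 of 3 at day 21, and in the uninjured artery the same numbers were seen. Schwann cell markers, the glia of peripheral nerve, were higher at day 7 for 4 of 4 counted genes, with a median of 4.27 and a sum of 17.7 against 1.13, and at day 21 for 0 of 4, with 1 lower. They were lower at day 21 than at day 7 for 4 of 4, with a median of -5.35. Endothelial markers were higher for 5 of 5 at day 7 (median 1.87) and 5 of 7 at day 21 (2.46). Neutrophil markers were higher for 3 of 4 at day 7 (1.90) and 0 of 5 at day 21, with 1 lower at day 21. With normexp, 4 of 7 macrophage, 2 of 5 endothelial and 1 of 4 neutrophil markers were higher at day 7. Schwann cell markers stayed at 4 of 4. Of the 9 genes described, 2 of the 4 comparable at day 7 were higher and 2 lower, and 1 of the 8 counted at day 21 was higher and 4 lower. The part of these cell types in the ratios of the 9 genes was not tested.

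Genes most like the group were sought over the 3 members measured on all arrays, whose median pattern was -1.73 at day 7 and -1.30 at day 21 on shared probes, which is that of Irf7. Of 5138 genes, the nearest by Euclidean distance over these 2 ratios were Atp5f1e, an ATP synthase subunit, at 0.01, the creatine transporter gene Slc6a8 at 0.04, the actin-severing destrin gene Dstn at 0.07, the matrix protein gene Ltbp4 at 0.10 and the IgM receptor gene Fcmr at 0.11. These are distances on the log2 scale over 3 arrays.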

How the data were processed

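Members and gene lists were chosen with earlier results of these data known. Cy3-labelled cRNA of each artery was read on a one-colour Agilent rat array, per the labels' protocols, and sample titles gave the groups. Spot intensity (the processed signal) comes from Agilent Feature Extraction, per the file headers, in version 11.0.1.1 at day 7 and 10.7.3.1 otherwise. Version 10.7.3.1 is also given in the submitters' processing notes. The array designs use rn4, per the file headers. The authors' deposited table gives 9260 rows on a log2 scale that rises with the scanner signal. Its column medians are 7.64 (uninjured), 7.62 (day 7) and 7.64 (day 21), and its normalization and centring are not given in the sources used.

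Control and outlier spots were left out, spots of 1 probe averaged as log2 values, and each array's 75th percentile subtracted: over the 10583 shared probes for comparisons with day 7, over all 40989 probes of the common design for day 21 with uninjured. Accessions were named through RefSeq (GRCr8), and a gene is its brightest probe over the arrays compared. A gene counts if well above background, in at least 0.5 of its spots, on 1 array or both. It is past the threshold at 2-fold, or at a 2-fold bound: the bright array's signal divided by what the dim array could have shown, which is the gene's own dim signal or, if larger, that array's lowest signal above background. Technical SDs come from replicate spots in 8 bins of signal. No model was fitted. The ratio step was tested on simulated data. The planned normexp alternative (offset 50) used median spot signals, since the files give no mean signal, and the alias Trif, which RefSeq gives to another gene, was dropped from the sensor list. All 9 members are named; of each other list, up to 4 genes past the threshold with the largest ratios per comparison, plus 1 in the opposite direction; genes of like pattern are the 5 nearest. A gene that this rule selects is not reported here. Python 3.11.15, R 4.3.3 and limma 3.58.1 were used. Alternatives changed the scaling, background correction, outlier filter, probe choice, dim-probe filter, fold, probes used and source of values.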

Additional observations from a re-analysis of the deposited data

Results flagged for a closer look

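In the authors' deposited table, signal appeared for 4 genes in rows that the comparisons above do not use. Day 7 minus uninjured was 4.14 for Mx1, 4.76 for Mx2, 4.37 for Irf1 and 5.54 for Stat2 on its log2 scale. Oas1a stood at -6.56. The probe named in each of these 5 rows is on the day 7 array and not on the other arrays, yet the rows carry uninjured and day 21 values. Reading the scanner signal of the older design's other probe through the relation between scanner and deposited values gave the uninjured values of the authors' deposited table to within 0.04 on the log2 scale: 4.40 against 4.38 for Mx1, 4.22 against 4.19 for Mx2, 10.44 against 10.44 for Oas1a, 3.46 against 3.42 for Irf1 and 4.50 against 4.50 for Stat2. In the same reading, day 21 of Mx1 was 3.93 against a deposited 3.61. For Irf1 at day 7, the mean of its 2 probes there read 7.79, against 7.79 in the authors' deposited table. These deposited differences therefore rest on different probes of the 2 designs. For genes with a shared probe, the authors' deposited table gave day 7 minus uninjured as -3.56 for Isg15, -2.67 for Irf7 and 1.35 for Gbp2.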

How the results depend on the processing

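Of 138 values recomputed, 101 stayed within the technical spread or, for counts, within 1.5 times, 37 moved further and 0 changed sign past the threshold; the cause was not tested. At day 7 over uninjured, the members' median (0.04) was -0.34 with median scaling, -0.18 with quantile normalization, -0.55 with normexp, -2.67 over 3 members in the authors' deposited table and -1.18 on each array's own design. The count of higher members (2) was 1 with normexp, 1 in the authors' deposited table and 0 on each array's own design. At day 21 over uninjured, the median (-0.72) was -0.24, -0.18 and -0.07 with median, quantile and loess scaling, and normexp left 0 higher. The count of members lower, which was added with its alternatives after seeing the data, was 2 with median scaling, with normexp and on the shared probes, where 4 members have a probe (main 4). At day 21 over day 7, the median (-0.03) was 0.43 with median scaling, 1.27 in the authors' deposited table and 1.34 on each array's own design. The count higher (0) was then 2 in that table and 3 on each array's own design, and the count lower (1) was 0 on each array's own design. No paired analysis was possible because each group has 1 array. Leaving out an array was not possible for the same reason, and signal near background limits Mx1, Mx2, Stat2, Irf1 and Ifit3.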
